A study of Homo sapiens with 2 samples.

Results

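The peaks considered here are stretches of the genome that the authors' peak caller listed from RNA precipitated with MTR4 and sequenced (RIP-seq), and that lie outside protein-coding genes. The series holds 2 libraries from PLC/PRF5, an established hepatocellular carcinoma cell line. Both came from cells that overexpressed MTR4 with an HA tag, carried on a plasmid, so the tagged protein was not at its natural level. Nuclear lysate was incubated with anti-HA antibody for 1 library and with IgG for the other, and the title of the IgG library names it an input. There was 1 library per antibody, no time course and no other treatment, and the only list used here was called on the anti-HA library. Whether the IgG library served as the control of that call is not given in the sources used here, so a listed peak cannot be read as enrichment over IgG. A peak was kept when its midpoint fell in no protein-coding gene of GENCODE release 44 on hg19 and lay more than 1000 bases from the canonical 5′ end of every protein-coding gene. Of 3302 listed peaks on chromosomes 1 to 22 and X, 322 met this rule, or 9.75% (95% Wilson interval 8.79 to 10.8%). They are called noncoding-region peaks below. The other 2980 peaks lay in a coding gene or close to the start of one.

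MTR4 is a helicase that unwinds RNA for the exosome of the nucleus, which shortens or destroys RNA from its 3′ end. Among its known substrates are precursors of snoRNAs and other small RNAs, transcripts from promoters that run in the reverse direction, and long noncoding RNAs (lncRNAs) that are short-lived in the nucleus. An adaptor complex that adds a short poly(A) tail marks some of these RNAs for decay.

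The list carries no read count, no enrichment and no p-value for any peak, and each peak is 400 bases wide, so the depth behind a peak is unknown and peaks cannot be ranked. The score was 60 for 320 of the 322 peaks and 1 for the other 2, which share a name and are listed at 2 places on chromosome 10. Protein-coding genes on chromosomes 3, 7, 10, 15, 20 and 22, which held most peaks, shared a base with a listed peak in 32.1% of cases (1400 of 4362). Of 23 hepatocyte genes on these chromosomes 7 did (30.4%), among them FAH with 3 peaks, and 16 did not, among them AHSG, KNG1 and RBP4. None of 7 genes of lymphoid, neural or muscle cells did. The hepatocyte share is not above that of all coding genes, so the list gives no check of the labelled cell type. The peaks come from 1 library and do not replicate each other. Each p-value below therefore describes the listed positions and is no comparison of MTR4 with IgG.

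Small RNA genes that share bases with a noncoding-region peak are shown first, since small RNA precursors are classical exosome substrates. There were 5 such peaks of 322 (1.55%, 95% interval 0.665 to 3.58%), against 8 of the other 2980 (0.268%, 0.136 to 0.529%). Of the 5, peaks 1760, 1761 and 1763 lie in the same host gene, and the intervals do not allow for this. SNORD116-11 and SNORD116-16 are copies of a box C/D snoRNA made from introns of SNHG14, the host transcript of the imprinted region on chromosome 15. SNORD116-11 (chr15:25321076-25321167, + strand) shares 86 of its 92 bases with peak 1761, and SNORD116-16 (chr15:25327915-25328006, + strand) lies whole in peak 1763. RN7SL2 (chr14:50329271-50329567, - strand), a gene of the 7SL RNA of the signal recognition particle, shares 293 of 297 bases with peak 1714. AC090825.1 (chr15:100332502-100332584, + strand) is annotated as a miRNA gene and lies whole in peak 2743. The sequences of the snoRNAs and of AC090825.1 are from the GRCh37 (hg19) genome, 5′ to 3′ on the strand of the gene. Capitals mark the first TGATGA (C box) and the last CTGA (D box) of the snoRNAs.
SNORD116-11: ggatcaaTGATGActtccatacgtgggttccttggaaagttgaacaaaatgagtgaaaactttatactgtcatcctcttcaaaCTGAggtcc
SNORD116-16: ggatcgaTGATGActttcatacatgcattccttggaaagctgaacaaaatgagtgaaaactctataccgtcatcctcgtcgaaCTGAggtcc
AC090825.1: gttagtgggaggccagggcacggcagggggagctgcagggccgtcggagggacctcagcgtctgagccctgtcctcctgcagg

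The snoRNA sequences are equal at 82 of 92 positions, and both boxes begin at the same positions in each. SNORD116-10 (chr15:25319261-25319362, + strand) shares only 11 of its 102 bases with peak 1760, which otherwise lies on its 5′ side. Other SNHG14 peaks stood near a snoRNA gene without touching it, as peak 1768 at 92 bases from SNORD116-29 and peak 1758 at 403 bases from SNORD116-8. The midpoints of peaks 1760, 1761 and 1763 lie in annotated exons of SNHG14. Peaks of 400 bases cannot tell whether the RNA was the mature snoRNA or the host transcript around it.

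The poly(A)-like motif and the CCA motif follow letters the study assigned to MTR4, and some peaks with these letters are shown next. The poly(A)-like motif was sought on both strands, and 22 of 322 noncoding-region peaks held it, against 6.42% of all listed peaks. The matches below, with 30 bases on either side, are on the strand that carries the motif, which is in capitals. Peak 1603 (chr10:125019305-125019376, - strand) lies in no gene. Peak 2679 (chr15:93428400-93428471, + strand) lies in an exon of CHASERR, an lncRNA encoded before CHD2. Peak 3663 (chr22:46452830-46452901, + strand) lies in an intron of MIRLET7BHG, the host gene of let-7 miRNAs.
peak 1603: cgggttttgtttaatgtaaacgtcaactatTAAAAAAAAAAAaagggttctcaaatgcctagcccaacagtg
peak 2679: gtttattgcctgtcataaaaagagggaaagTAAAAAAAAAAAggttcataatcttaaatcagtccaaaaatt
peak 3663: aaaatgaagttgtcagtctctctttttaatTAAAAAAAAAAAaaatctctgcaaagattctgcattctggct

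Of the 22 peaks with the motif, 9 held it as taaaaaaaaaaa, the form in the peaks shown, against 76 of the other 190 listed peaks with the motif. The commonest form, not shown, has a C within it and was held by 12 of the 22 and 96 of the 190.

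The CCA motif, sought on both strands as CCANC in which N is any base but A, is short and was found in 91.2% of all listed peaks. The study's notation can also be read with a fixed G, as CCAGNC with the same N, and that reading was found in 60.9% of noncoding-region peaks and 62.0% of all listed peaks. The CCANC form and its reverse complement are in capitals in the middle 120 bases of peak 3736 (chr22:48089742-48089861, + strand). This peak lies in an intron of the lncRNA gene EPIC1 and belongs to a run of peaks described below. In the following pair of sequences CG is in capitals. They are the middle 120 bases of the noncoding-region peaks with the highest and the lowest GC content over 400 bases, peak 1727 with 84.0% (chr15:22546172-22546291, + strand) and peak 5031 with 27.2% (chr3:163346142-163346261, + strand). Peak 1727 lies in a pseudogene and peak 5031 in no gene.
peak 3736: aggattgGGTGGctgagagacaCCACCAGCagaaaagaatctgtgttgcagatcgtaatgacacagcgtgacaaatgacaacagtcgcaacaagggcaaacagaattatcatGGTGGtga
peak 1727: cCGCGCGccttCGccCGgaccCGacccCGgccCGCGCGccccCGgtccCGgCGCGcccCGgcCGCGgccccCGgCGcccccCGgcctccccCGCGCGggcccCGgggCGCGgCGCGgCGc
peak 5031: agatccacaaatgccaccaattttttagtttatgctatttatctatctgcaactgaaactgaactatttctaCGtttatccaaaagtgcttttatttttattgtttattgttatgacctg

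The position of the noncoding-region peaks on the chromosomes was examined. Chromosomes 3, 10, 15 and 22 held 316 of the 322. Chromosome 10 carried the most with 109, followed by chromosome 15 with 81, chromosome 3 with 73 and chromosome 22 with 53. Chromosome 20 had 2, chromosomes 6, 13, 14 and X had 1 each, and chromosome 7 had 0 of its 37 listed peaks. As a share of the listed peaks of each chromosome they made up 21.1% on chromosome 10 (95% interval 17.8 to 24.9%), 9.90% on chromosome 15, 9.35% on chromosome 22 and 5.72% on chromosome 3 (4.57 to 7.13%). A run of 44 consecutive peaks on the short arm accounted for part of the share on chromosome 10, and without it the share was 13.8% (11.0 to 17.2%), against 7.65% over all other chromosomes.

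**Figure D1:**
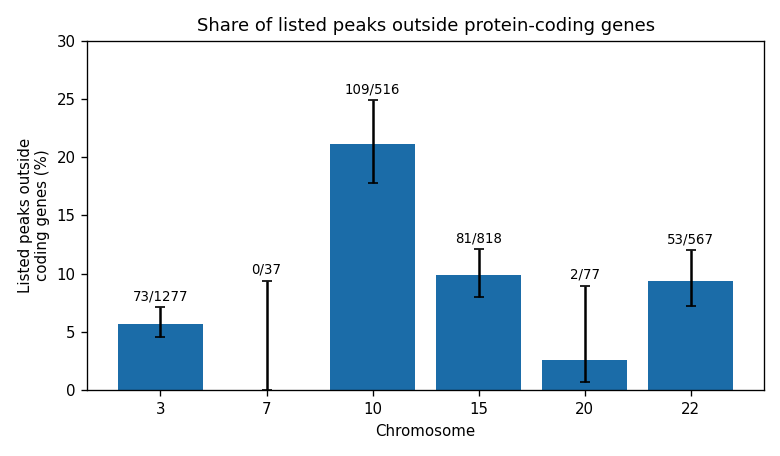
Share of the listed peaks of each chromosome that lie outside protein-coding genes (y axis, percent) for the 6 chromosomes with most peaks (x axis), with 95% Wilson intervals that cover counting error only. The numbers above the bars are noncoding-region peaks over all listed peaks, and chromosome 10 stands highest at 21.1%.

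Noncoding sequence offers far more room for peaks than the list used. On chromosomes 3, 10, 15 and 22, 48.6% of sequenced bases met the position rule, whereas 9.94% of listed peaks there did. The peaks outside coding genes were not spread evenly over these bases. An lncRNA gene covered the midpoint of 57.6% of the 316 peaks (95% interval 52.1 to 62.9%), and 29.9% of the bases that meet the rule, weighted by chromosome, lie in lncRNA genes. A pseudogene with no lncRNA gene held 3.48% of the peaks (1.95 to 6.12%) and 2.86% of the bases. An exon of a noncoding gene held 25.3% of the peaks (20.8 to 30.4%) and 3.09% of the bases, a ratio of 8.20. These shares of bases are counted from the annotation and include sequence to which reads cannot be mapped uniquely. They are given as a description without a test.

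**Figure D2:**
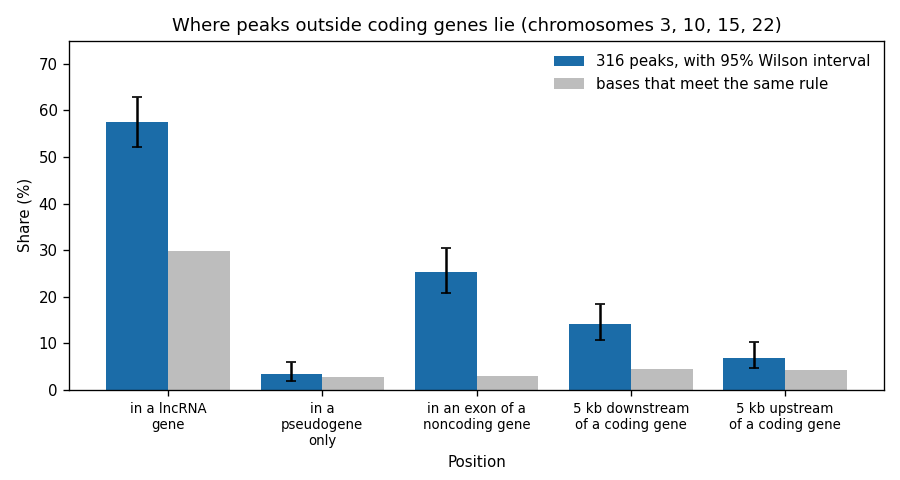
Share (y axis, percent) of 316 noncoding-region peaks on chromosomes 3, 10, 15 and 22 (dark bars, 95% Wilson intervals) and of all bases that meet the same position rule (light bars) in each kind of position (x axis). The dark bar is above the light one at noncoding exons by 25.3% to 3.09%, and for pseudogenes the interval of 1.95 to 6.12% includes the share of bases.

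Over all 322 peaks, 185 lay in an lncRNA gene, 12 in a pseudogene with no lncRNA gene and 125 in no annotated gene. Thus 197 peaks (61.2%, 95% interval 55.8 to 66.3%) had a noncoding gene at the midpoint. Of the 185 peaks in lncRNA genes, 22 also lay in a pseudogene that overlaps the lncRNA gene, in some cases on the other strand. In noncoding genes 84 of 197 midpoints were exonic (42.6%, 35.9 to 49.6%), counting an exon of any noncoding gene, and 113 were intronic. Listed peaks in protein-coding genes were exonic in 1485 of 2951 cases (50.3%). The difference of -7.68 percentage points (95% interval -14.6 to -0.471) gave p = 0.0393 by the two-sided Fisher's exact test and an adjusted p = 0.295 over 15 tests, so it was not called. This comparison depended on the definition of an exon. With canonical transcripts alone the difference was -19.2 points (Fisher's exact test, adjusted p = 7.18e-07), and with any shared base it was -13.2 points (adjusted p = 0.00346). Within chromosomes it was -5.25 points (exact stratified test, adjusted p = 0.493).

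The peaks in noncoding genes fell along the whole length of these genes. In the direction of transcription, 68 of 197 lay in the part up to 25% of the gene length, 48 between 25 and 50%, 36 between 50 and 75% and 45 beyond 75%. These counts pool all genes, and SNHG14 alone gave 20 of the peaks, all between 5.32 and 31.9% of its length. They therefore show no lean of noncoding genes in general. Since lncRNA gene models change between releases, this position depends on the model used. In all, 145 noncoding genes held a peak at the midpoint: 115 lncRNA genes, 29 pseudogenes and 1 small RNA gene. On the 6 chromosomes with most peaks, 2.63% of lncRNA genes held one (114 of 4336). The median length of these 114 genes was 28.0 kb, against 6.30 kb for all lncRNA genes of these chromosomes. Most genes held few peaks, with 112 genes at 1 peak, 19 at 2 and 14 at 3 or more.

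The genes with 8 or more peaks were long lncRNA genes, of 70.4 kb or more, and most of their peaks stood in runs. A run was taken as 3 or more noncoding-region peaks with no other listed peak between them and no gap over 50000 bases. There were 15 runs, which held 124 of the 322 peaks (38.5%), and 4 of them held 8 or more. The longest, on the short arm of chromosome 10 (chr10:3364402-3669001), held 44 peaks over 305 kb with a median gap of 5600 bases. Of these 44, 33 lay in no annotated gene, 10 in introns of LINC02669, an intergenic lncRNA gene of 70.4 kb, and none in an exon. GC content in this run ranged from 34.8 to 55.0% with a median of 42.4%, and no peak of the run held the poly(A)-like motif or the Alu marker.

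SNHG14 held 20 noncoding-region peaks in 1 run over 118 kb (chr15:25247052-25365051), with 13 exonic midpoints and a median gap of 5880 bases. MIRLET7BHG held 5 over 54.9 kb, with peak 3668 in an exon 1028 bases from MIRLET7A3, the gene of a let-7 precursor. GC content within MIRLET7BHG reached 70.0% in peak 3667, the highest value in the 15 runs.

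HERC2P3, a transcribed copy of part of the ubiquitin ligase gene HERC2, held 8 peaks within a run of 10 (chr15:20572452-20657901). Of its 8 peaks, 4 were exonic. Peaks 1718, 1719, 1720 and 1721 lay close together near the 3′ end, between 94.1 and 99.7% of the gene length. Peak 1724 lay at 47.6% and had 6 near-identical copies elsewhere in the genome, and peak 1725 at 42.4% had 2. Peaks 1718 and 1719 had 1 copy each, and 6 of the 10 peaks of the run had at least 1.

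EPIC1, an lncRNA gene of 392 kb on chromosome 22 reported to bind MYC, held 10 peaks, all intronic, and 8 of them formed a run over 118 kb. The gaps in this run were wider than in the others with 8 or more peaks, with a median of 14500 bases and a minimum of 7100. The peaks lay between 16.1 and 68.1% of the gene length. GC content in the run ranged from 41.2 to 56.2%.

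LINC01208 on chromosome 3, a gene of 452 kb, held 6 intronic peaks. Peaks 5133, 5134 and 5135 stood about 2000 bases from each other, and peak 5130 stood 181800 bases from its nearest neighbour. All 6 had low GC content, from 32.5 to 36.2%. ENSG00000290199 on chromosome 22 held 5 intronic peaks over 27.2 kb, of which peaks 3033 and 3034 were 1000 bases apart, the smallest distance among all noncoding-region peaks.

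On the long arm of chromosome 15, ENSG00000275443 held 5 peaks and NR2F2-AS1, antisense to a nuclear receptor gene, held 4. Those 4 are shared, because the gene models overlap on opposite strands, and the list carries no usable strand. LINC00923 held 4, of which peak 2708 lay at the very start of the gene, at 0.299% of its length, in an exon. LINC00842 on chromosome 10 held 4, and peak 591, in an intron of it that holds the pseudogene HNRNPA1P33, had 4 near-identical copies. ENSG00000291065, ENSG00000287482 and ENSG00000290993 held 3 each. The 3 peaks of ENSG00000287482 also lie in SNHG14, which runs on the other strand.

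**Figure D3:**
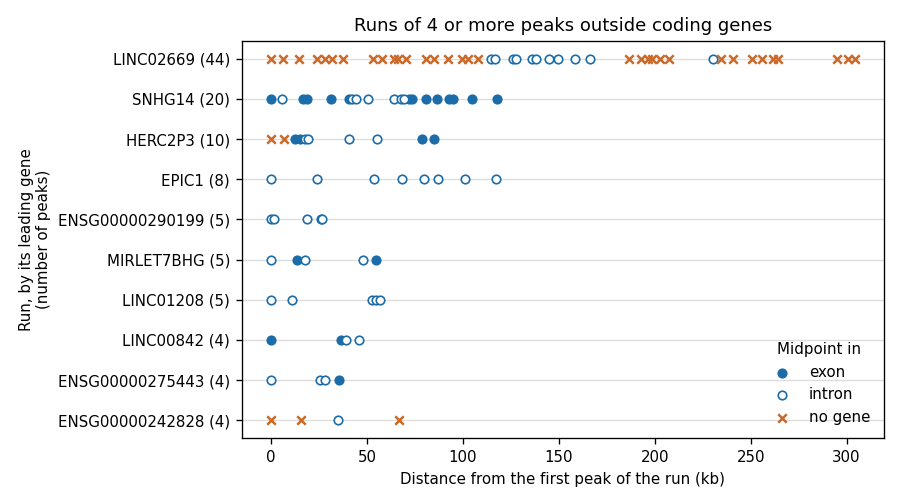
Position of each peak in the 10 runs with 4 or more noncoding-region peaks, as distance in kb from the first peak of the run (x axis), with 1 line per run named by a gene that holds at least as many of its peaks as any other gene (y axis, number of peaks in brackets). Filled circles are midpoints in an exon of any noncoding gene, open circles intronic midpoints and crosses midpoints in no gene, and the LINC02669 run at the top is the longest with 44 peaks over 305 kb.

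Noncoding genes were then grouped by the kind of name they carry. Of 529 antisense genes (-AS) on the 6 chromosomes with most peaks, 15 held a peak (2.84%), with 21 peaks in all. NR2F2-AS1 held the most, and BHLHE40-AS1 and GABPB1-AS1 held 2 each. Both peaks of GABPB1-AS1 were exonic. Of 127 divergent transcripts (-DT), which start close to a coding gene and run away from it, 4 held a peak (3.15%). NUP50-DT held 2 intronic peaks 2000 bases apart, and EIF3J-DT and MINDY2-DT held 1 exonic peak each. Of 470 intergenic genes (LINC), 22 held a peak (4.68%), with 43 peaks in all. These shares stand against 2.63% of all lncRNA genes, and the position rule removes peaks near coding starts, where divergent and antisense genes often begin. It also removes peaks inside coding genes, which bears on any noncoding gene that overlaps one. LMCD1-AS1, for example, held 5 listed peaks at the midpoint, of which 1 was a noncoding-region peak. The shares of the groups therefore cannot be compared apart from the rule.

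Host genes of small RNAs are few. Of 6 SNHG genes, which host snoRNAs, 2 held a peak. They were SNHG14 and SNHG17 on chromosome 20, whose exonic peak 2805 lay at 92.3% of the gene length, 4030 bases from SNORA71B. Of 10 miRNA host genes (MIR...HG), 2 held a peak, MIRLET7BHG and MIR4713HG with 1 intronic peak. Of 4 genes named as overlapping (-OT), MUC20-OT1 held 2 intronic peaks. Of 27 intronic genes (-IT) none held a peak. Any peak inside a coding gene is left out by the position rule. An intronic gene within a coding gene could therefore not hold one, and this count cannot be read as a lack of peaks.

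Of the well-known nuclear RNAs on a list for this report, SNHG14 and MIRLET7BHG were the ones with a noncoding-region peak. TERC, the RNA of telomerase, and MIAT, DGCR5 and LINC-PINT shared no base with any listed peak although they lie on chromosomes with peaks. SOX2-OT on chromosome 3 shared a base with 1 listed peak, which was not a noncoding-region peak. TUG1 shared a base with 3 listed peaks, but release 44 annotates it as protein-coding. RN7SK, the 7SK RNA that holds back transcription elongation, shared a base with 1 listed peak, whose midpoint was within 1000 bases of a coding start and which was therefore left out. MEG3, MIR17HG and RMRP shared no base with a peak, and they lie on chromosomes with hardly any. NORAD, an abundant lncRNA that binds PUMILIO proteins, held 1 exonic peak (peak 2802, chr20:34635902-34636301) in the middle of its 5.40 kb. It was singled out after its value was seen. The absence of a peak cannot be read as absence of binding, since the depth is unknown.

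The noncoding-region peaks were also placed relative to protein-coding genes, because exosome substrates include RNA made beyond the 3′ ends of genes. Within 5000 bases downstream of a coding gene lay 45 of 322 peaks (14.0%, 95% interval 10.6 to 18.2%), and within 5000 bases upstream lay 22 (6.83%, 4.55 to 10.1%). On chromosomes 3, 10, 15 and 22 the downstream share was 14.2% of the peaks against 4.56% of the bases that meet the rule, a ratio of 3.12. The upstream share was 6.96% against 4.21%, a ratio of 1.65. The first 1000 bases downstream held 16 peaks, where the share of bases would give 3.36, and the next 1000 held 13 against 3.03. From 10000 to 20000 bases downstream the counts per 1000 bases were between 0 and 4. The first 1000 bases upstream are mostly excluded by the rule.

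**Figure D4:**
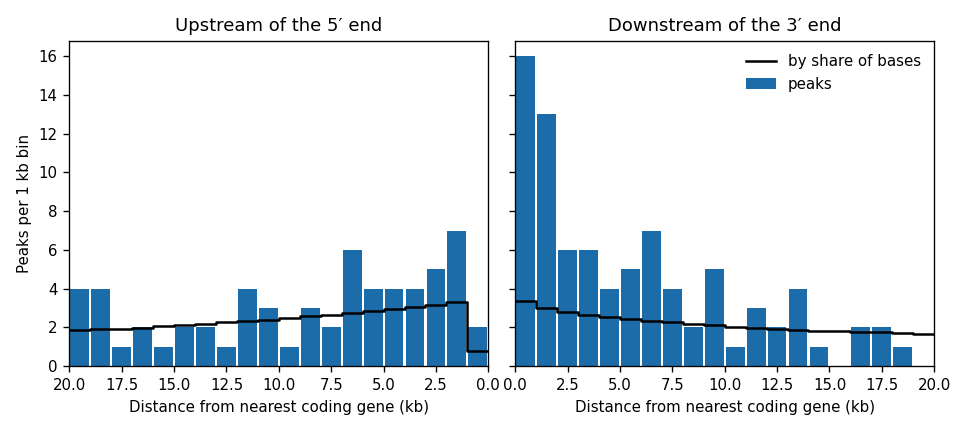
Number of noncoding-region peaks on chromosomes 3, 10, 15 and 22 (bars, y axis) per 1 kb of distance from the nearest coding gene (x axis, kb), upstream of its 5′ end on the left and downstream of its 3′ end on the right. The black line is the number that the share of eligible bases would give, and the first bin downstream holds 16 peaks against 3.36.

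Of the 45 downstream peaks, 29 lay in no annotated gene, and such peaks made up 23.2% of the 125 peaks in no gene. The closest were peak 3674, with its midpoint 6 bases beyond CDPF1 on chromosome 22, peak 4621, 176 bases beyond SLC35A5, a sugar transporter family gene on chromosome 3, and peak 923, 243 bases beyond ANXA11, which encodes an annexin. Peaks 3674 and 4621 are the only noncoding-region peaks that share bases with a coding gene. ANXA11 had another peak, 922, at 2043 bases beyond its end. Next were peak 2499, 254 bases beyond IMP3, and peak 2020, 290 bases beyond SHF, both in annotated lncRNA genes. The lncRNA at peak 2499 runs against IMP3, whereas that at peak 2020 runs with SHF. Among the 16 downstream peaks in a noncoding gene, that gene ran on the strand of the coding gene in 6.

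Downstream peaks stood beside coding genes that often held listed peaks of their own. Of 40 coding genes with a noncoding-region peak within 5000 bases beyond the 3′ end, 23 held another listed peak (57.5%, 95% interval 42.2 to 71.5%), and of 22 with one within 5000 bases before the 5′ end, 15 did (68.2%, 47.3 to 83.6%). Both shares stand against 32.1% of all coding genes of the 6 chromosomes. Gene length was not matched in this description. GOLGA4 held 6 listed peaks, ADAM10 held 5 and CIP2A held 4, whereas EIF5A2, SLIT1 and ATAD1 held none within the gene and had a peak between 593 and 905 bases beyond it.

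Upstream of coding genes the 5 closest peaks all lay in annotated noncoding genes. Peak 1572 lay 686 bases before ATE1 in ATE1OSP, peak 2679 lay 851 bases before CHD2 in CHASERR, peak 3872 lay 1320 bases before BHLHE40 in BHLHE40-AS1, peak 2008 lay 1356 bases before EIF3J in EIF3J-DT and peak 594 lay 1479 bases before ANTXRL. CHD2, a chromatin remodeller, held 11 listed peaks. CHASERR runs on the strand of CHD2, and ATE1OSP, BHLHE40-AS1 and EIF3J-DT run against their neighbours. Of all noncoding-region peaks, 160 of 322 lay over 50000 bases from any coding gene (49.7%). All 44 peaks of the run on chromosome 10 are among these, and the share of bases at this distance is not given here.

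Values at the limit of the rule were as follows. The nearest peaks kept were peak 3872 at 1320 bases from the canonical start of BHLHE40, peak 2008 at 1378 bases from EIF3J, peak 2499 at 1393 bases from IMP3, peak 1572 at 1456 bases from ATE1 and peak 842 at 1635 bases from AGAP5. The nearest peaks left out, among 29 outside coding genes but close to a start, were peak 3080 at 963 bases from TFIP11, peak 3548 at 792 from TNFRSF13C, peak 4260 at 683 from CELSR3, peak 2274 at 680 from USP3 and peak 4059 at 670 from CMTM8. No peak outside coding genes stood between 963 and 1320 bases.

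Base composition was compared between noncoding-region peaks, the other listed peaks and the 1429 listed peaks in introns of coding genes. The median GC content was 43.9% in the noncoding-region peaks, 44.5% in the other peaks and 43.8% in coding introns. The territory that meets the rule, divided into 537793 tiles of 400 bases, had a median of 40.0%. A GC content of 50% or more was found in 98 of 322 noncoding-region peaks (30.4%), against 1005 of 2980 other peaks (33.7%) and 384 of 1429 intronic peaks (26.9%). The differences were -3.29 points (95% interval -8.36 to 2.20, Fisher's exact test p = 0.263, adjusted p = 0.493) and 3.56 points (-1.76 to 9.25, Fisher's exact test p = 0.214, adjusted p = 0.493). In tiles the share was 16.9%. A composition like that of CpG islands (GC of 50% or more and an observed-to-expected CpG ratio of at least 0.6) was found in 8.07% of noncoding-region peaks and 0.976% of tiles. It was found in 10.4% of other peaks (Fisher's exact test, adjusted p = 0.493) and 5.60% of intronic peaks (adjusted p = 0.469).

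Within the noncoding-region peaks, those in pseudogenes had a median GC content of 48.6%, exonic ones 47.5%, intronic ones 45.8% and those in no gene 41.0%. CpG-island-like composition was seen in 21 of 197 peaks in noncoding genes (10.7%, 95% interval 7.08 to 15.7%) and in 5 of 125 peaks in no gene (4.00%, 1.72 to 9.02%). The poly(A)-like motif was seen in 19 of the former (9.64%, 6.26 to 14.6%) and in 3 of the latter (2.40%, 0.820 to 6.82%). These splits were not tested.

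Of noncoding-region peaks 6.83% held the poly(A)-like motif, as did 6.38% of other peaks and 8.33% of intronic peaks. Differences of 0.456 points (95% interval -2.01 to 3.85) and -1.50 points (-4.25 to 2.06) did not pass the test (Fisher's exact test, adjusted p = 0.863 and 0.642). Tiles held the motif in 9.54% of cases. The CCA motif was present in 91.9% of noncoding-region peaks, 91.1% of other peaks, 91.1% of intronic peaks and 87.9% of tiles, and no difference between peaks was detected (Fisher's exact test, adjusted p = 0.863 for both, intervals -2.84 to 3.51 and -2.94 to 3.78 points). A run of 8 A or 8 T was present in 18.0%, 17.7% and 21.4% of the same sets of peaks (Fisher's exact test, adjusted p = 0.878 and 0.493) and in 21.1% of tiles.

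The word GAGGCTGAG, sought on both strands, was used as a marker of Alu, a common repeat. It was read from the RN7SL2 gene, so it also marks 7SL sequence, and peak 1714, which overlaps that gene, holds it. The Alu marker was less common in noncoding-region peaks than in peaks of coding introns. It was found in 18 of 322 (5.59%) against 156 of 1429 (10.9%), a difference of -5.33 points (95% interval -7.99 to -1.90, Fisher's exact test p = 0.00275, adjusted p = 0.0413). Within chromosomes the difference was -5.83 points (exact stratified test, adjusted p = 0.0254). The call rested on the run of 44 peaks on chromosome 10, in which no peak holds the marker. Without that run the difference kept its direction at -4.44 points but was not called (Fisher's exact test p = 0.0230, adjusted p = 0.295). Against all other peaks, of which 7.52% held the marker, the difference of -1.93 points did not pass the test (Fisher's exact test, adjusted p = 0.493). The marker, sought on both strands, was in 7.33% of all listed peaks and 11.5% of tiles.

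**Figure D5:**
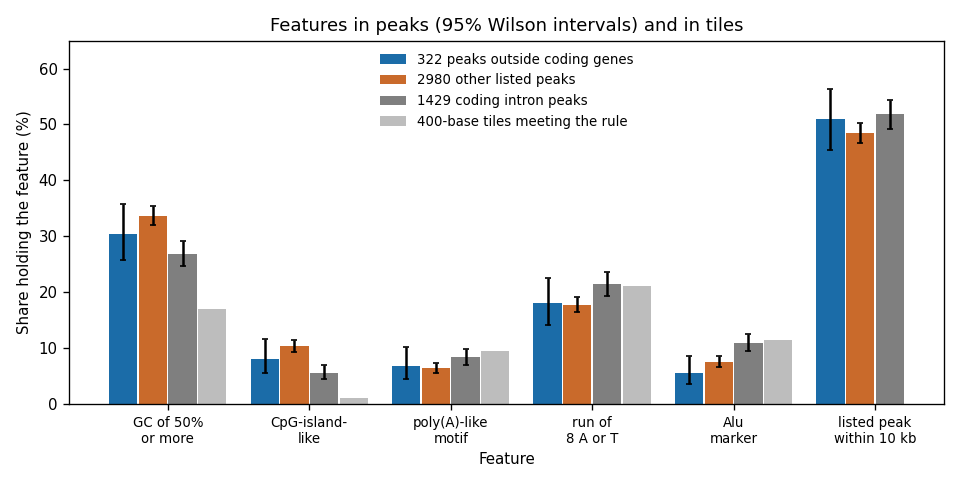
Share of peaks or tiles with each sequence or spacing feature (y axis, percent) for noncoding-region peaks, other listed peaks, peaks in coding introns and 400-base tiles of the eligible sequence (bars from left to right, 95% Wilson intervals for peaks only). Peaks of all 3 sets exceed the tiles in GC-rich composition, with 30.4% against 16.9% for noncoding-region peaks, and tiles have no bar for spacing.

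Spacing was compared last. Another listed peak lay within 10000 bases of 164 noncoding-region peaks (50.9%), of 1445 other peaks (48.5%) and of 740 intronic peaks (51.8%), with differences of 2.44 points (95% interval -3.29 to 8.15) and -0.853 points (-6.87 to 5.15) that did not pass the test (Fisher's exact test, adjusted p = 0.642 and 0.863). With a limit of 50000 bases fewer noncoding-region peaks had a neighbour, by -10.0 points against other peaks (Fisher's exact test, adjusted p = 0.000355) and by -12.3 points against intronic peaks (adjusted p = 6.23e-06). The run of 44 peaks on chromosome 10 bears on the values at 10000 bases. Without it the differences were -5.32 points against other peaks and -8.62 points against intronic peaks (Fisher's exact test, adjusted p = 0.352 and 0.0658). The nearest listed peak was itself a noncoding-region peak for 201 of 322 (62.4%). This share has no comparison here and was not computed without the run of 44 peaks. The 124 peaks in runs stand next to one another by definition.

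Finally, copies elsewhere in the genome were sought, since a read that fits several places cannot be assigned to 1 of them. A near-identical copy was an alignment over at least 380 bases with at least 95% identity. Shorter repeats were not counted, so a peak without such a copy may still hold reads that fit several places. At least 1 was found for 34 of 322 noncoding-region peaks (10.6%), for 44 of 2980 other peaks (1.48%) and for 9 of 1429 intronic peaks (0.630%). This comparison was chosen after the data were seen and is given without a test. On chromosome 15 the share was 16 of 81 (19.8%, 95% interval 12.5 to 29.7%), on chromosome 10 it was 9 of 109, on chromosome 3 it was 6 of 73 and on chromosome 22 it was 3 of 53. By position, 25 of 185 peaks in lncRNA genes had a copy, as had 2 of 12 in pseudogenes and 7 of 125 in no gene. The highest number was 9 copies. The part of such copies in the counts above was not tested.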

How the data were processed

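PLC/PRF5 cells that overexpressed MTR4-HA were lysed, and RNA of the nuclear lysate was precipitated with anti-HA or IgG (1 library each, grouped by the antibody in the labels). Per the labels and the study's methods, the authors mapped reads to hg19 with TopHat2 2.0.13 and called peaks with RIPSeeker. The deposited list gives positions and a score, which the authors left at 60 or 1. No counts were analysed here, and the depth is unknown. Members were chosen by midpoint against GENCODE release 44 mapped to GRCh37, coordinates counting from 1. The members and gene lists were chosen with earlier results of these data known. Named genes were noncoding genes with 3 or more members, small RNA genes sharing a base with one, up to 3 genes per name group, listed nuclear RNAs, members with the poly(A)-like motif and neighbours at the limits. The 15 two-sided Fisher's exact tests (scipy 1.17.1) were adjusted by Benjamini-Hochberg, with Wilson intervals for shares and Newcombe intervals for differences (statsmodels 0.14.6, 95%). Copies were sought with minimap2 2.31. The tests were checked on simulated data. IgG peaks were not analysed here. Some items are not reported here.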

Additional observations from a re-analysis of the deposited data

How the results depend on the processing

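No paired analysis was possible because only 1 library was made with either antibody. Of 84 alternatives, 64 were planned and 20, which leave out the run of 44 peaks on chromosome 10, were chosen after the data were seen. In all, 62 left the call and its direction as they were or stayed within the error. Without chromosome 10, 213 peaks remained, 71.4% of them in a noncoding gene, and without the run of 44 peaks 66.9% were. The exonic share in noncoding genes was 51.3% by any shared base and 22.3% by canonical transcripts, and against coding genes the differences were -13.2 and -19.2 points. Limits of 2000 and 10000 bases gave 9.01% and 21.1% downstream and 2.80% and 12.1% upstream. The difference in Alu marker from intronic peaks was -4.44 points without the run. Signs turned, none past the threshold, for GC content against other peaks without chromosome 10 (0.466 points), the poly(A)-like motif against intronic peaks on the strand of the gene (3.01), CCAG(G/C/T)C in place of the CCA motif (-1.28 against other and -4.21 against intronic peaks) and runs of A or T within chromosomes (-0.0378). For a neighbour within 10000 bases, the difference from other peaks was -3.07 points without chromosome 10 and -5.32 without the run, and that from intronic peaks was 1.52 within chromosomes and -8.62 without the run (Fisher's exact test, adjusted p = 0.0658). With a limit of 50000 bases it was -10.0 and -12.3, past the threshold. The cause of these changes was not tested. Intervals cover counting error in this list only.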
